A study of Homo sapiens with 4 samples.

Results

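The 2 arms of human chromosome 8 were compared for binding of FOXA2 in PC3 cells. Members were the FOXA2 peaks of the deposited lists whose summit, the position of highest signal, lay on chromosome 8 (hg19) below 43 Mb for the short arm, 8p, or above 47.5 Mb for the long arm, 8q. Of 21308 peaks in the vehicle list, 171 lay on the short arm and 1148 on the long arm. Of 14846 peaks in the GSK2879552 list, 109 lay on the short arm and 831 on the long arm. The study measured FOXA2 by chromatin immunoprecipitation followed by sequencing in PC3, an established human prostate cancer line that grows without androgen. Cells were held in medium with 5% charcoal-stripped serum and given vehicle, or 50 µM GSK2879552, which blocks LSD1 (KDM1A), a histone demethylase, for 4 hours. The labels give no separate time for vehicle and name no genetic change in either group. Each group comprised 2 sequencing lanes, described as technical replicates, with 1 deposited peak list for both. No spread between cultures can therefore be measured, and no p-value is given for any comparison. The sample descriptions name the assay as ATAC-seq, whereas the titles and series text name FOXA2 ChIP-seq, which was followed.

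FOXA2 is a forkhead pioneer factor: it binds DNA wrapped in nucleosomes and opens chromatin for other factors. In the prostate it is known from the developing bud and from androgen-independent and neuroendocrine tumours, while the luminal epithelium of the adult relies on its relative FOXA1. LSD1 removes methyl groups from histone H3 lysine 4, the mark of active promoters and enhancers, and acts on non-histone proteins as well. In prostate cancer the short arm of chromosome 8 is often lost and the long arm often gained. Copy number changes the number of DNA templates from which a ChIP library draws its reads. The number of copies of either arm in these cells was not measured here.

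The centromere limits cut through no dense group of arm peaks. The last vehicle peak inside the short arm, chr8:42922480-42922786, had 18 fragments over its summit, and the first beyond the limit, chr8:43092760-43093260, had 48. The first vehicle peak inside the long arm, chr8:48688799-48688983, had 9 fragments, and the last before the limit, chr8:46889654-46889933, had 16.

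FOXA2 peaks were sparse on the short arm and dense on the long arm in both lists. Between the first and last summit, over 42.8 Mb, the short arm held 3.99 vehicle peaks per Mb (95% interval 3.42 to 4.64). The long arm, over 97.6 Mb, held 11.8 per Mb (11.1 to 12.5). The long arm was thus 2.95 times as dense (2.51 to 3.48). In the GSK2879552 list the densities were 2.55 per Mb (2.09 to 3.07) on the short arm and 8.52 (7.95 to 9.12) on the long arm, a ratio of 3.34 (2.74 to 4.12). Intervals here and below treat peaks as independent and cover no spread between cultures. For densities, shares and ratios of counts they are exact 95% intervals that cover counting error only. Medians have order-statistic 95% intervals and differences of shares Newcombe 95% intervals. Ratios of medians are given with the bounds of the medians' intervals. The arms' density intervals did not overlap in either list.

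Spacing differed in the same direction. Neighbouring vehicle summits lay a median of 69.3 kb apart on the short arm (interquartile range 24.2 to 215.9) and 37.3 kb apart on the long arm (13.5 to 88.5). Stretches of 1 Mb or more without a vehicle summit numbered 8 on the short arm and filled 42.2% of it. There were 10 on the long arm, filling 14.5%. The widest on the short arm ran 6.46 Mb, from the first summit at position 116064 to the next at 6571613. The widest on the long arm ran 2.72 Mb, from 138341165 to 141063888. In the GSK2879552 list the widest stretches measured 8.37 Mb on the short arm and 4.43 Mb on the long arm, the latter from 52811739 to 57240979. Close neighbours were less different: another vehicle summit lay within 10 kb for 46 of 171 short-arm peaks (26.9%, 20.4 to 34.2) and 391 of 1148 long-arm peaks (34.1%, 31.3 to 36.9), against 30.5% of the whole list. In GSK2879552 there were 28 (25.7%, 17.8 to 34.9) and 239 (28.8%, 25.7 to 32.0), against 24.4%. The arms' intervals overlapped in both lists.

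**Figure D1:**
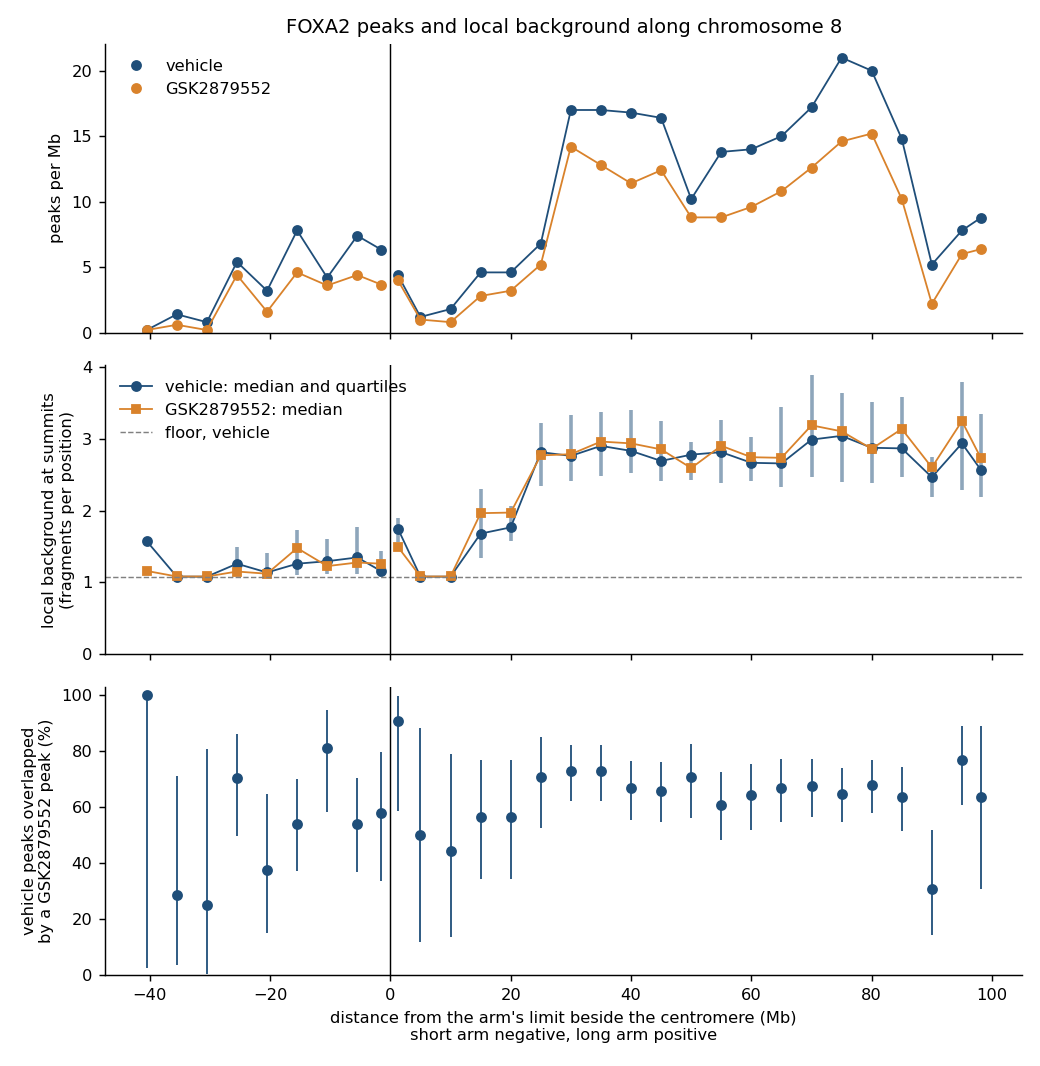
Chromosome 8 in windows of 5 Mb (shorter at the limits and the end), plotted by distance from each arm's limit beside the centromere, with the short arm to the left of 0. The upper panel gives peaks per Mb in each list, the middle panel the median local background at summits (vehicle with quartiles), and the lower panel the share of vehicle peaks overlapped by a GSK2879552 peak with exact 95% intervals. Background stays below 2 up to 20 Mb out on the long arm and above 2.4 in vehicle beyond it, where density varies from 5.20 to 21 peaks per Mb.

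The short arm itself was uneven. Its outer 15 Mb held 12 vehicle peaks, or 0.80 per Mb (0.41 to 1.40), and 5 GSK2879552 peaks. The remaining part, from 15 Mb to the limit, held 159 vehicle peaks, or 5.68 per Mb (4.83 to 6.63), and 104 GSK2879552 peaks. The 1 Mb windows with most vehicle summits were chr8:30000001-31000000 with 13, chr8:29000001-30000000 with 11 and chr8:35000001-36000000 with 10. They held 10, 5 and 6 GSK2879552 peaks.

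Along the long arm, peak density was lower below 70 Mb than beyond it, and lowest between 50 and 61 Mb. Between 47.5 and 50 Mb there were 11 vehicle peaks, 4.40 per Mb (2.20 to 7.87), and 10 GSK2879552 peaks. Between 50 and 61 Mb only 21 vehicle peaks were called, 1.91 per Mb (1.18 to 2.92), and 12 GSK2879552 peaks. Between 61 and 70 Mb there were 40 vehicle peaks, 4.44 per Mb (3.18 to 6.05). From 70 Mb to the end there were 1076, or 14.1 per Mb (13.3 to 14.98). Windows of 5 Mb from 75 to 95 Mb each held 82 to 85 vehicle peaks. The highest counts were 105 and 100, in the windows from 120 to 130 Mb, and a low of 26 followed between 135 and 140 Mb. The densest 1 Mb windows were chr8:122000001-123000000 with 35 vehicle and 23 GSK2879552 peaks, chr8:128000001-129000000 with 30 and 22, and chr8:110000001-111000000 with 29 and 19. A further window also held 29. The limits of 15, 50, 61 and 70 Mb were chosen after the values were seen.

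Local background was higher on the long arm in both lists. MACS2, the peak caller, sets each summit against a local background: the number of fragments expected per position, taken from a 10 kb window around the summit, and never below a floor set by the whole library. The window includes the peak's own fragments. This holds for a background made without a control library, which was assumed because the use of a control is not given. The floor was 1.08 fragments per position in both lists, equal to 61.7 reads per 10 kb in vehicle and 64.4 in GSK2879552. In vehicle, the median background was 1.23 on the short arm (interquartile range 1.08 to 1.59) and 2.77 on the long arm (2.35 to 3.36), a ratio of 2.26 (2.09 to 2.44, from the bounds of the medians' intervals). In reads per 10 kb the medians were 70 and 158.5. In GSK2879552 they were 1.24 (1.08 to 1.61) and 2.86 (2.44 to 3.36) fragments per position, a ratio of 2.30 (2.08 to 2.53). The quartile ranges did not overlap in either list.

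A background above the floor was found at 116 of 171 short-arm vehicle peaks (67.8%, 60.3 to 74.8) and at 1127 of 1148 on the long arm (98.2%, 97.2 to 98.9), against 88.6% of the whole list. In GSK2879552 the shares were 65.1% (55.4 to 74.0) and 98.4% (97.3 to 99.2), against 89.5%. The short arm thus lay below the whole list and the long arm above it. At 2 times the floor or more, 12 short-arm vehicle peaks (7.02%, 3.68 to 11.9) stood against 986 on the long arm (85.9%, 83.7 to 87.9), where the whole list gave 29.7%. In GSK2879552 these were 4 (3.67%, 1.01 to 9.13) and 739 (88.9%, 86.6 to 90.98), against 31.1%.

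The difference in background held at equal fragment number. Vehicle summits with 13 to 16 fragments had a median background of 1.14 on the short arm (46 peaks), 2.24 on the long arm (180) and 1.40 on the other chromosomes (4957). With 31 to 50 fragments the medians were 1.76 (18 peaks), 3.08 (273) and 2.35 (2701). In GSK2879552 the medians at 13 to 16 fragments were 1.20, 2.40 and 1.48. Each fragment over a summit adds 0.0175 to the vehicle background of that summit, and with those taken off, the vehicle medians were 0.93 on the short arm and 2.28 on the long arm. For summits at the floor this is an upper bound, because the floor hides lower values, so the short-arm level is bounded from above. The long-to-short ratio of these medians, 2.45 (2.29 to 2.54), is therefore a lower bound. Whether background differed by a smaller ratio than density was not resolved.

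**Figure D2:**
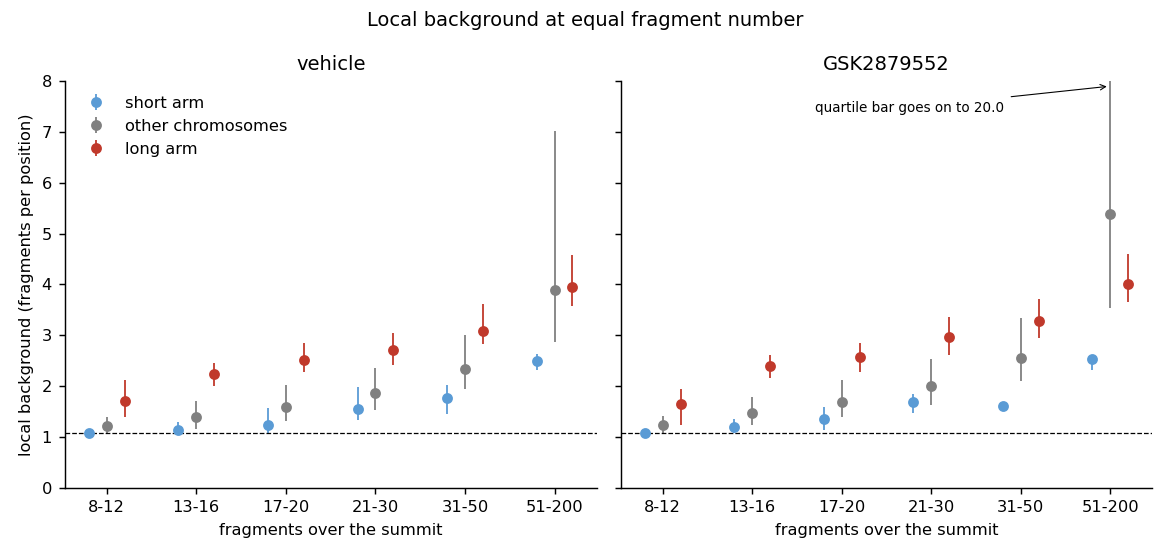
Median local background (points) with quartiles (bars) for summits grouped by the number of fragments over them, in the vehicle list on the left and the GSK2879552 list on the right. The dashed line is the floor. At every fragment number the long arm lies above the short arm, and up to 50 fragments the other chromosomes lie between them.

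Background varied along the long arm, lowest between 50 and 61 Mb and highest from 70 Mb on. The 11 vehicle summits between 47.5 and 50 Mb had a median background of 1.75, and none was at the floor. Between 50 and 61 Mb, 20 of 21 were at the floor, and all 12 GSK2879552 summits were. Between 61 and 70 Mb none of the 40 vehicle summits was at the floor, and the median was 1.81 (1.63 to 2.32). From 70 Mb on, 1 of 1076 was at the floor and the median was 2.82 (2.42 to 3.43). The GSK2879552 list gave 1.50, 1.08, 2.02 and 2.89 for the 4 stretches, in the same order. Their limits were chosen after the backgrounds were seen, so the sharp change at 61 Mb comes in part from that choice. In the 5 Mb window from 60 to 65 Mb, 5 of 23 vehicle summits were at the floor. From 70 Mb on the 5 Mb windows varied little, with vehicle medians between 2.47 and 3.05. On the short arm, 10 of the 12 outer summits and 45 of the 159 inner summits were at the floor. Density and background did not always go together: from 70 Mb on, windows held 5.20 to 21 vehicle peaks per Mb at those medians. On the short arm the window from 25 to 30 Mb held 7.80 per Mb at a median background of 1.26, while the long-arm windows from 60 to 70 Mb each held 4.60 at 1.68 and 1.77. Whether more reads per position let more peaks be called was not tested, and more copies of the DNA and wider binding cannot be told apart from these lists.

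The arms were also compared by fold enrichment. Fold enrichment divides the fragments over the summit by the local background after adding 1 to each. Its median was higher on the short arm, 7.36 (interquartile range 6.13 to 9.40) against 6.73 (5.34 to 9.23) on the long arm in vehicle. In GSK2879552 the medians were 6.83 (5.76 to 8.65) and 6.26 (5.22 to 8.03). Over 34 other arms, compared below, median vehicle folds ran from 6.52 on 18p to 7.63 on 17p, the arm of lowest median background. On 10q, the arm of highest background, the median fold was 6.73. Whether fold follows background was not tested. With both lists held to a fold of at least 5, the density ratios were 2.63 (2.22 to 3.13) in vehicle and 2.95 (2.38 to 3.68) in GSK2879552. Cuts of 8 and 10 were chosen after the data were seen. At 8, 71 short-arm and 409 long-arm vehicle peaks remained, a density ratio of 2.53 (1.96 to 3.30). In GSK2879552 37 and 211 remained, a ratio of 2.502 (1.76 to 3.65). At 10, vehicle gave a ratio of 2.64 (1.85 to 3.88). GSK2879552 gave 4.13 (2.27 to 8.23), from 12 short-arm and 113 long-arm peaks. The long arm was denser at each cut in both lists.

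Among the chromosome arms compared, the long arm was the densest in FOXA2 peaks. The same measures were taken for the 34 arms of 17 other chromosomes. Acrocentric chromosomes, whose centromere lies near an end, were left out, so their long arms were not ranked. Vehicle peaks per Mb ran from 3.20 on 19q through a median of 7.30 to 11.6 on 18p, so the 11.8 of 8q stood above all 34, although its interval includes the value of 18p. In GSK2879552 the highest of the others was 7.98, on 3q, against 8.52 on 8q, whose interval again includes it. The short arm exceeded 5 of the 34 in vehicle and 3 in GSK2879552. For median vehicle background, 8q exceeded 33 of 34, all but 10q at 3.19, and 8p exceeded 5. At 10 to 20 fragments the median background of 8q, 2.35, exceeded all 34, the next being 18p at 2.12. Of the 18 chromosomes compared, chromosome 8 had the largest ratio of long-arm to short-arm density. Chromosome 17 followed at 2.42, and the median of the other 17 was 0.96. Its background ratio of 2.26 was also the largest, again followed by chromosome 17 at 2.03, with a median of 0.99.

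**Figure D3:**
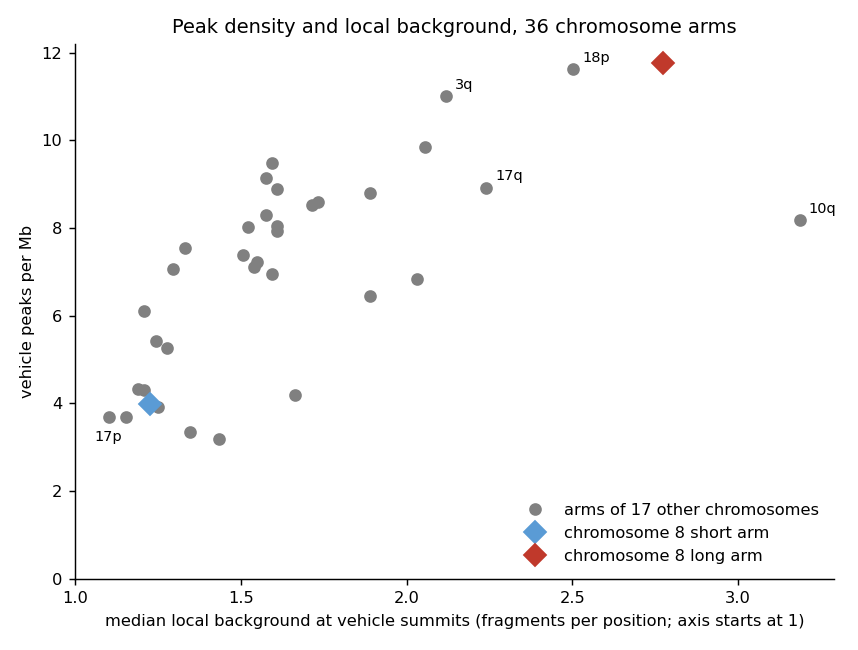
Each point is 1 chromosome arm, placed by the median local background of its vehicle summits (horizontal, starting at 1) and its vehicle peaks per Mb (vertical), with the arms of chromosome 8 as diamonds. The short arm sits at 1.23 and 3.99 among the sparsest arms, and the long arm at 2.77 and 11.8 lies at the upper right.

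Summits on the long arm carried more fragments. The median number over a vehicle summit was 16 on the short arm (interquartile range 12 to 22, highest 77) and 24 on the long arm (18 to 37, highest 180), a ratio of 1.50. The other chromosomes had a median of 18. After GSK2879552 the medians were 16 (12 to 20, highest 55) and 23 (18 to 32, highest 138). At least 50 fragments were found at 4 short-arm vehicle peaks (2.34%, 0.64 to 5.88) and at 147 on the long arm (12.8%, 10.9 to 14.9), where the whole list gave 7.08%. In GSK2879552 there were 3 (2.75%, 0.57 to 7.83) and 70 (8.42%, 6.63 to 10.5), against 5.40%. Widths differed less, with a vehicle median of 248 bp (201 to 314) on the short arm and 271 bp (217 to 328) on the long arm, and 245 and 249 bp after GSK2879552.

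The strongest site of the short arm, by vehicle −log10 p among peaks found in both lists, was chr8:30389033-30389368. It had 77 fragments in vehicle over a background of 2.43, and 52 in GSK2879552 over 2.08. The site at chr8:39552478-39552922 also had 77 vehicle fragments, and 55 after GSK2879552. These and the following short-arm sites were all lower in the GSK2879552 list. At chr8:27316741-27317082 the numbers were 66 and 44. At chr8:29614349-29614678 they were 63 and 55, the smallest relative drop of the 5. At chr8:22413926-22414249 they were 41 and 23, with the background falling from 1.28 to the floor.

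The strongest shared site of the long arm, chr8:126442300-126442669, had 180 fragments in vehicle over a background of 6.41 and 138 in GSK2879552 over 5.83. At chr8:76757041-76757470 the 2 lists had 141 and 110, and at chr8:94080501-94080909 there were 135 and 102. The largest relative drop of the 5 was at chr8:128943892-128944245, from 104 to 69, and the smallest at chr8:102619811-102620555, from 117 to 99. These long-arm summits had more fragments than those of the short arm. Their vehicle folds, 15.1 to 24.4, overlapped the short arm's 18.1 to 22.8 and reached beyond that range at both ends. All 10 were picked by their vehicle value, which by itself favours a lower number in the other list.

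Fewer peaks were called after GSK2879552 on both arms. The ratio of peak numbers was 0.637 (0.497 to 0.815) on the short arm and 0.724 (0.661 to 0.792) on the long arm, against 0.697 for the whole lists. The short arm's was below that of all 34 other arms, where the lowest was 0.640 on Xq, and the long arm's exceeded 29 of them. However, the short arm's interval spans the whole range of the 34, 0.640 to 0.772, so its rank was not resolved. The intervals of the arms of chromosome 8 overlapped, so their difference was not resolved at these counts.

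The share of vehicle peaks overlapped by a GSK2879552 peak, here called retained, was lower on the short arm. It was 98 of 171 (57.3%, 49.5 to 64.8) there and 760 of 1148 (66.2%, 63.4 to 68.9) on the long arm, where the whole list gave 62.0%. The long arm was higher by 8.89 points (Newcombe interval 1.20 to 16.9). Of GSK2879552 peaks, 98 of 109 on the short arm (89.9%, 82.7 to 94.9) and 764 of 831 on the long arm (91.9%, 89.9 to 93.7) overlapped a vehicle peak, against 89.2% of the whole list. That difference was 2.03 points (-2.79 to 9.30). Along the long arm the lowest retained share of any 5 Mb window lay at 135 to 140 Mb, with 8 of 26 (30.8%, 14.3 to 51.8). That window was picked as the lowest, and its interval does not allow for this. Its vehicle summits had a median of 17 fragments, against 24 on the whole long arm. In the outer 15 Mb of the short arm 4 of 12 were retained (33.3%, 9.92 to 65.1).

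How the arms compared in retention depended on the measure of strength held equal. The vehicle list was cut into 5 bins of about equal size, and the retained share of the whole list in each bin was applied to the peaks of each arm. By −log10 p, the shares of the whole list gave 59.9% for the short arm and 66.7% for the long arm, against 57.3% and 66.2% observed, so both arms lay within their intervals of that level. By fragments, they gave 53.6% and 75.3%: the long arm retained 9.07 points fewer than the whole list at equal fragments, outside its interval, and the short arm 3.70 points more, within it. By fold, they gave 64.9% and 59.4%, which puts the long arm 6.76 points above; for the short arm the difference was -7.60 points, and both levels lay outside the arms' intervals, the short arm's only just.

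At equal fragments the long arm retained a smaller share in each of the 5 bins, and the interval of the difference excluded 0 in bins 2 and 3. With 14 to 16 vehicle fragments, 16 of 32 short-arm peaks (50.0%, 31.9 to 68.1) and 33 of 150 long-arm peaks (22.0%, 15.7 to 29.5) were retained, and the whole list gave 44.0%. With 17 to 21 fragments the shares were 64.7% (46.5 to 80.3) and 45.3% (39.2 to 51.6), a difference of -19.4 points from short to long (-34.4 to -1.49). In bin 2 the difference was -28.0 points (-45.4 to -10.1), in bin 1, with 7 to 13 fragments, -8.81 (-23.5 to 5.90), and in bin 4, with 22 to 31, -13.2 (-21.7 to 3.51). With 32 or more they were 17 of 17 and 378 of 385 (98.2%). A given number of fragments stood over a higher background on the long arm, as given above, and so had a lower −log10 p. By −log10 p, only the fourth of the 5 bins separated the arms, with 24 of 36 retained on the short arm (66.7%, 49.03 to 81.4) and 194 of 228 on the long arm (85.1%, 79.8 to 89.4). By fold the direction was the opposite of that by fragments: the long arm retained more in all 5 bins. The differences were 10.7 (-8.51 to 21.6) and 5.67 points (-12.3 to 23.3) in the lowest bins, then 24.9 (8.66 to 40.5), 26.1 (13.1 to 42.2) and 8.33 (2.59 to 21.8), the last 3 with intervals above 0. In every fold bin the long-arm peaks had more fragments, with medians from 16 to 55 against 10 to 31 on the short arm. Equal fold was therefore not equal fragment number.

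**Figure D4:**
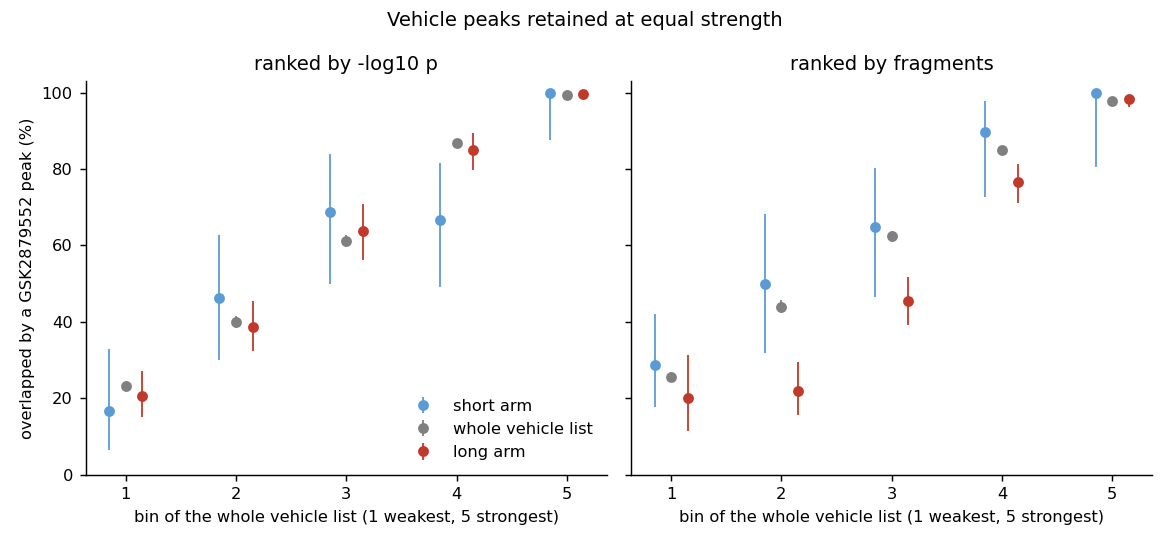
Share of vehicle peaks overlapped by a GSK2879552 peak, with exact 95% intervals, in 5 bins of the whole vehicle list ranked by −log10 p (left) or by fragments over the summit (right). The arms lie close together on the left except in bin 4 (66.7% against 85.1%), while on the right the long arm lies below the short arm in bins 2 and 3 (22.0% against 50.0%, and 45.3% against 64.7%); bins by fold, which go the other way, are not plotted.

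Sites called in both lists had fewer fragments after GSK2879552 on both arms. Peaks that were each other's best overlap formed 98 pairs on the short arm and 760 on the long arm. The median fell from 20 fragments (interquartile range 15 to 29.8) to 16 (12 to 20.8) on the short arm and from 31 (23 to 45) to 24 (19 to 33.3) on the long arm. Without scaling, the number was lower at 78 short-arm pairs (79.6%, 70.3 to 87.1) and 633 long-arm pairs (83.3%, 80.4 to 85.9), against 78.0% of all pairs. It was higher at 15 and 93 pairs and equal at 5 and 34, where all 13200 pairs gave 2150 higher and 748 equal. At least 2-fold lower were 5 of 98 short-arm and 20 of 760 long-arm pairs, where all pairs gave 4.04%. None on either arm was at least 2-fold higher, but only 6 of all 13200 pairs were.

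Scaled by the floors of the lists, the median log2 ratio of GSK2879552 to vehicle fragments was -0.45 on the short arm (order-statistic interval -0.52 to -0.31), a ratio of 0.732. On the long arm it was -0.36 (-0.38 to -0.33), a ratio of 0.781. Over all 13200 pairs it was -0.32. The short arm's median was below that of all 34 other arms, the lowest of which was -0.41 on 19p, but its interval reached -0.31 and included the long arm's. All pairs were also cut into 4 bins by fragments. In the highest bin the medians were -0.58 for 12 short-arm pairs (-0.69 to -0.40) and -0.39 for 316 long-arm pairs (-0.44 to -0.36), against -0.34 for all. In the lowest bin they were -0.30 for 37 pairs (-0.45 to -0.12) and -0.10 for 43 pairs (-0.30 to -0.003), against -0.23. The intervals of the arms overlapped in both bins. The background at paired summits moved less, by a median log2 ratio of -0.12 on the short arm (-0.16 to -0.05) and -0.05 on the long arm (-0.07 to -0.04). Summits at the floor in both lists can show no change in this ratio, and the floor limits how far others can fall. The smaller movement is thus in part set by the floor.

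**Figure D5:**
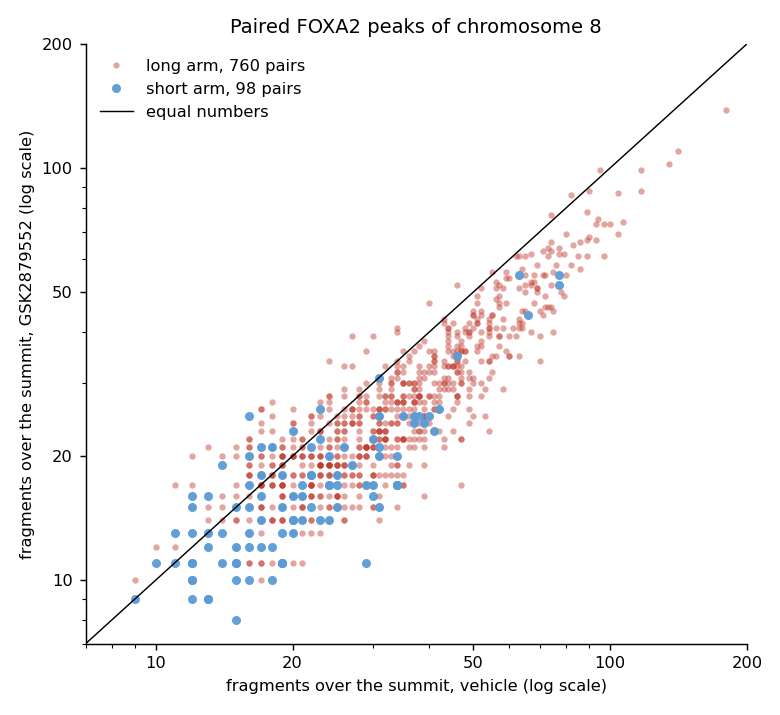
Fragments over the summit in vehicle (horizontal) and GSK2879552 (vertical), both on log scales, for the 98 short-arm and 760 long-arm pairs, with the line of equal numbers. Most pairs of both arms lie below the line, and the long arm reaches higher numbers, up to 180 and 138.

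Single pairs went further in either direction. The lowest ratio on the short arm was at chr8:41983438-41983801, where 29 fragments became 11, and the highest at chr8:26187347-26187620, with 16 and 25. On the long arm the lowest was at chr8:62679801-62680093, with 47 and 17, and the highest at chr8:79527178-79527437, with 12 and 20. These are extremes of many pairs, so part of their size comes from being picked.

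Peaks of 1 list alone had lower median fragment numbers than overlapped peaks on both arms. The 73 vehicle-only peaks of the short arm had a median of 13 fragments (11 to 15, highest 25), and the 388 of the long arm 17 (15 to 20, highest 43). Their median folds were 6.44 and 5.21. Overlapped vehicle peaks had medians of 20 and 31 fragments. They made up 57.3% and 66.2% of the arms' vehicle peaks, against 62.0% of the whole list. The strongest vehicle-only peak of the short arm was chr8:21888289-21888581, with 25 fragments and no GSK2879552 summit within 111484 bp. The next, chr8:17693702-17693943 with 23 fragments, had one only 467 bp away, and the third, chr8:37270394-37270633, had 20 fragments over the floor. On the long arm the strongest were chr8:106440742-106441032 with 43 fragments, chr8:79468336-79468565 with 36 and chr8:108644354-108644615 with 30. The nearest GSK2879552 summits lay 70717, 2637 and 11498 bp from them.

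Peaks of the GSK2879552 list alone numbered 11 on the short arm, with a median of 13 fragments, and 67 on the long arm, with a median of 16. Overlapped peaks of that list had medians of 16 and 24. They made up 89.9% and 91.9% of the arms' GSK2879552 peaks, against 89.2% of the whole list. The strongest short-arm peak of the GSK2879552 list alone was chr8:39344252-39344503 with 18 fragments over the floor, 128739 bp from a vehicle summit. It was followed by chr8:36853257-36853478 with 16 fragments and chr8:19535560-19535736 with 17, the latter 411 bp from a vehicle summit. On the long arm, chr8:121359162-121359399 had 22 fragments, chr8:105764588-105764807 had 26 and chr8:122823735-122823985 had 22. The last lay 386 bp from a vehicle summit. A peak in 1 list alone has no called peak at that site in the other, which does not show that the site was unbound there.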

How the data were processed

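FOXA2 ChIP-seq of PC3 cells was analysed from 2 peak lists, 1 per group, each covering 2 lanes. The genome build was hg19 (GRCh37) and the tools MACS2 2.1.2, BWA 0.7.2 and SAMtools 0.1.18, per the submitters' processing notes. Options, threshold, duplicate handling and the use of a control are not given in these sources. The deposited fold enrichment is a ratio, fragments plus 1 over local background plus 1. The deposited −log10 p and −log10 q, and the deposited score (10 times the −log10 q), are the peak caller's. Scores and folds are the authors' values.

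Fragments and background were computed from fold and p (Poisson upper tail): a whole number below 1500 matched within 0.001 for 100% of peaks in both lists. The shortest intervals, 175 bp (vehicle) and 168 bp (GSK2879552), were taken as the fragment length. Read depth at the floor was 6.17 and 6.44 reads per kb, assuming a background made without a control library. Overlap meant at least 1 bp, checked with bedtools 2.31.1. Recovery, overlap and pairing were tested on simulated data. Scripts ran in Python 3.11.15 with SciPy 1.17.1. Arms of other chromosomes were split at rounded hg19 centromere positions with 2.5 Mb left out on each side, each checked against a summit-free stretch of the vehicle list. Acrocentric chromosomes were not included. Shares carry Clopper-Pearson intervals, densities exact Poisson intervals, ratios of counts exact conditional binomial intervals and medians order-statistic intervals.

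Named peaks, per arm, are, ranked by −log10 p, the first 5 shared (by the vehicle value) and the first 3 called in a single list, the lowest and highest ratio of pairs below a background of 25, and the 3 densest 1 Mb windows. Members, rules and lists were chosen with earlier results of these data known. Genes were not placed, because the gene table used is of another build, and no sequence is shown. Alternatives comprised thresholds, overlap rules, arm lengths, parts of the long arm and other measures of background.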

Additional observations from a re-analysis of the deposited data

Results flagged for a closer look

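The stretch between the arms of chromosome 8, outside both limits, also held FOXA2 peaks: 38 in vehicle and 39 in GSK2879552. They enter none of the comparisons of the arms. The peaks lay in a pair of groups beside the centromere gap, 22 vehicle summits on its short-arm side and 16 on its long-arm side, with none between 43838695 and 46839942. Their median local background was 10.5 fragments in vehicle and 10.97 in GSK2879552, and 16 and 18 of them had 25 or more, a level no peak of either arm reached. The median number of fragments was 60 in vehicle and 70 in GSK2879552. Over 32 pairs the median log2 ratio was 0.02 (-0.11 to 0.08), against -0.45 and -0.36 on the arms, and 14 of the 32 were lower in GSK2879552. How reads from repeats were placed is not given in the sources used here, and its part in these values was not tested.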

How the results depend on the processing

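Of 79 values recomputed under alternatives, 66 stayed within the interval of the reported value and 13 moved beyond it. Among the 66 are some that could not change. Leaving out backgrounds of 25 or more, or empty windows of 5 Mb, removed nothing from the arms, so those values say nothing on stability. The sign changed only for retention against the whole list at equal strength, given below. Requiring −log10 q to reach 10 gave long-to-short density ratios of 3.62 (vehicle) and 4.15 (GSK2879552), a ratio of peak numbers of 0.630 on the long arm, and retained shares of 46.3% (short) and 59.9% (long). Folds of at least 8 and 10 gave GSK2879552 density ratios of 2.502 and 4.13, and the long arm from 70 Mb on a vehicle density ratio of 3.53, each added once the data had been seen. On the long arm the median log2 ratio was -0.39 when the background was subtracted from the fragments. The vehicle background ratio was 2.09 at 10 to 20 fragments and 2.45 without the summit's own fragments, the latter chosen after seeing the data. Against the whole list at equal strength, long-arm retention was -0.46 points by −log10 p, -9.07 by fragments and 6.76 by fold; the last pair was added after seeing the data. The short arm was -2.63, 3.70 and -7.60. Stricter thresholds leave fewer peaks by construction. Otherwise the cause was not tested. Omitting the densest 10 Mb of the long arm, 120 to 130 Mb, moved nothing beyond its interval. Omitting single lanes and counting genes per arm were not run: the lists do not separate lanes, and the gene table is of another build. No paired analysis was possible: lanes are technical replicates and form no pairs of cultures, and each group's peak list pools them. With 171 and 109 peaks, the short arm's counts limit what can be resolved, and the floor hides backgrounds below 1.08 fragments.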
